A study of Solea senegalensis with 8 samples.

Results

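The miRNAs with late numbers, here those whose number is that of miR-455 or higher, whatever the letter or strand, made up 75 of the 320 miRNAs listed for Senegalese sole (Solea senegalensis, a flatfish). The rule uses the name and no measured value, but the set and the lists within it were drawn up with earlier results of these data known. Small RNA had been sequenced from 8 SOLiD libraries of whole embryos or larvae, 1 for each of 4 stages and 2 incubation temperatures. The earliest stage was that of 75% epiboly (75Ep), followed by the stage with 20 somites (20S), by newly hatched larvae (Hatch) and by larvae at the climax of metamorphosis (Met). Eggs came from natural spawning of captive broodstock, embryos developed at either 15°C or 21°C, and from hatching on all were reared at 21°C. Larvae from 15°C reached Met later after hatching than those from 21°C, so the Met libraries differ in age as well as in embryonic temperature. Samples were taken by stage and not by age, and pairs of values name 15°C before 21°C. Each library pooled triplicate samples, so no stage and temperature has a replicate library. The p-values rest on the spread left between both libraries of a stage once a temperature difference shared by all stages is removed. Those for temperature are thus set against how far the temperature difference varies between stages. In the fit the spread of each miRNA is drawn towards that of miRNAs of like level. Where a miRNA had no read in either library of a stage, both take the same set value, which is no measured spread.

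miRNAs are short RNAs that repress mRNAs, mostly through their seed bases near the 5′ end. Their numbers were given in order of registration, so the early numbers hold many families shared by all vertebrates. Later numbers mix miRNAs first met in zebrafish or chicken, tissue-restricted miRNAs of vertebrates, and mammalian entries that rest on few reads or resemble pieces of other RNAs. Both strands of a hairpin can be sequenced, and 5p and 3p name the arm.

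The deposited values are log2 of the percent of trimmed reads, and reads were recovered from them. The trimmed reads numbered 2169069 to 4965849 per library and the reads of all 320 miRNAs 142964 to 2284973. miRNAs took 6.84% and 6.59% of the trimmed reads at 75Ep, between 22.3% and 30.5% at 20S and Hatch, and 46% and 17.9% at Met. A library with no read of a miRNA allows up to 3 reads, which is 6.04e-05% to 0.000138% of its trimmed reads. Intervals are exact, at 95%, and cover counting error only. As a check of the stage labels, miR-430d, which clears maternal mRNA in fish embryos, fell from 86556 and 34391 reads at 75Ep to 59 and 30 at Met, and let-7a, a late miRNA, went from 48 and 47 to 13053 and 3649.

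The members were read less widely than the other miRNAs. Of the 75 members, 32 (42.7%) were well read, with 10 or more reads in 2 or more libraries, against 197 of the 245 others (80.4%). Reads were found in all 8 libraries for 22 members (29.3%) and 157 others (64.1%), and in a single library for 15 members (20%) and 10 others (4.08%). The 32 well-read members held 56722 reads, 99% of all reads of members, with a median of 887 reads over the 8 libraries and a range from 76 to 8479. The 43 trace members held 582 reads, with a median of 4 and a range from 1 to 103.

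Members with 1 or more reads numbered 44 and 32 at 75Ep, 42 and 47 at 20S, 53 and 54 at Hatch, then 55 and 46 at Met. Thinned to the 142964 miRNA reads of the 75Ep 21°C library, the expected numbers were 40.8 and 32.0 at 75Ep, 31.1 and 37.1 at 20S, 37.0 and 36.7 at Hatch, then 35.0 and 35.4 at Met. The 2 libraries of 75Ep thus stood apart, with 5 of the 6 later libraries between them. Counted from 3 reads on and without thinning, 25 and 24 members were found at 75Ep and 34 to 43 in each later library. The 75Ep libraries also held the fewest miRNA reads, and this count was not made for the other miRNAs, so no change in detection is read from it. For the other miRNAs the same thinning gave 170.2 and 188.0 at 75Ep, 181.1 and 180.4 at 20S, 192.4 and 187.5 at Hatch, then 195.0 and 200.8 at Met. The 75Ep 15°C library held 17 trace members and the 75Ep 21°C library 6.

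**Figure D1:**
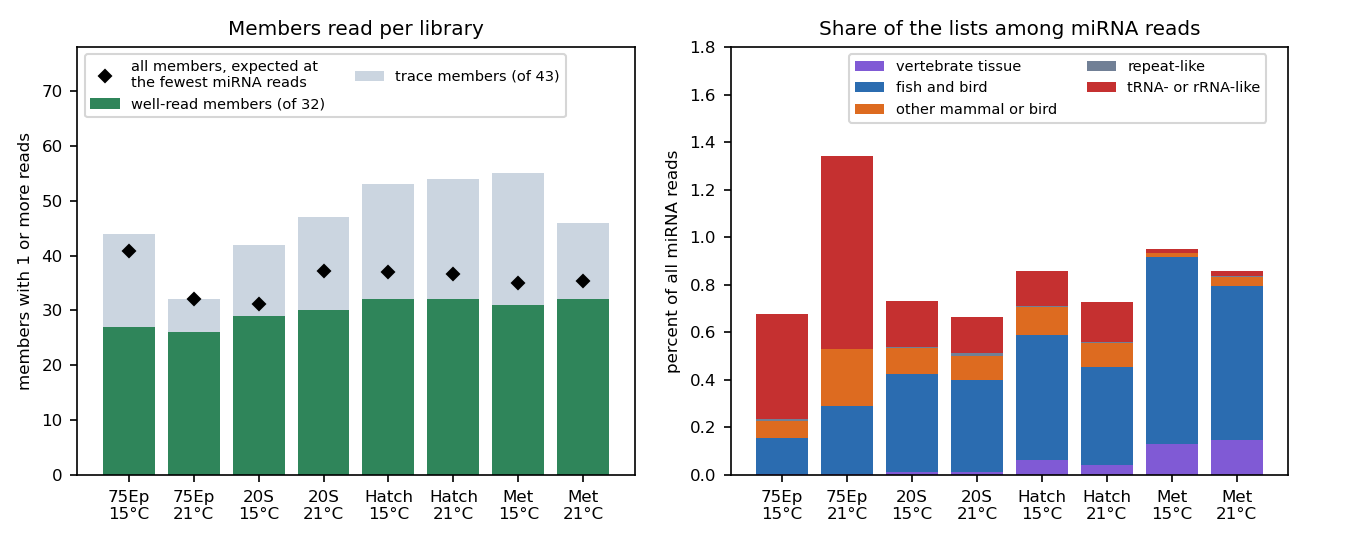
Left, the number of members with 1 or more reads in each library (stacked bars, well-read and trace members) and the number expected at the fewest miRNA reads of any library (diamonds). Right, the percent of all miRNA reads taken by 5 lists of members (stacked bars), in which the tRNA- or rRNA-like list takes 0.439% and 0.812% at 75Ep and 0.0155% and 0.0237% at Met.

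Together the members took 0.0462% and 0.0886% of the trimmed reads at 75Ep, 0.169% and 0.148% at 20S, 0.213% and 0.222% at Hatch, then 0.437% and 0.154% at Met. As a percent of miRNA reads the members took between 0.665% (20S, 21°C) and 1.34% (75Ep, 21°C), so this share changed little beside that of the trimmed reads. Its make-up changed. Names grouped as tRNA- or rRNA-like took 0.439% and 0.812% of the miRNA reads at 75Ep, 0.194% and 0.154% at 20S, 0.148% and 0.167% at Hatch, then 0.0155% and 0.0237% at Met. Those described mainly from fish and birds took 0.151% and 0.287% at 75Ep, 0.41% and 0.388% at 20S, 0.525% and 0.409% at Hatch, then 0.783% and 0.647% at Met. In both lists the ranges of the 75Ep and Met libraries did not overlap, and the lists moved in opposite directions. By percent of trimmed reads the tRNA- or rRNA-like names took 0.03% and 0.0535% at 75Ep and 0.0448% and 0.0343% at 20S. On that scale they took 0.0368% and 0.051% at Hatch, overlapping with both earlier stages, then 0.00713% and 0.00424% at Met. At 75Ep miR-1260b (15°C) and miR-3968 (21°C) had the most reads of any member, at 20S and Hatch miR-456 or miR-1788-3p, and at Met miR-2188. No member came higher than place 18 among all miRNAs of a library, the place of miR-1260b at 75Ep 15°C.

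**Figure D2:**
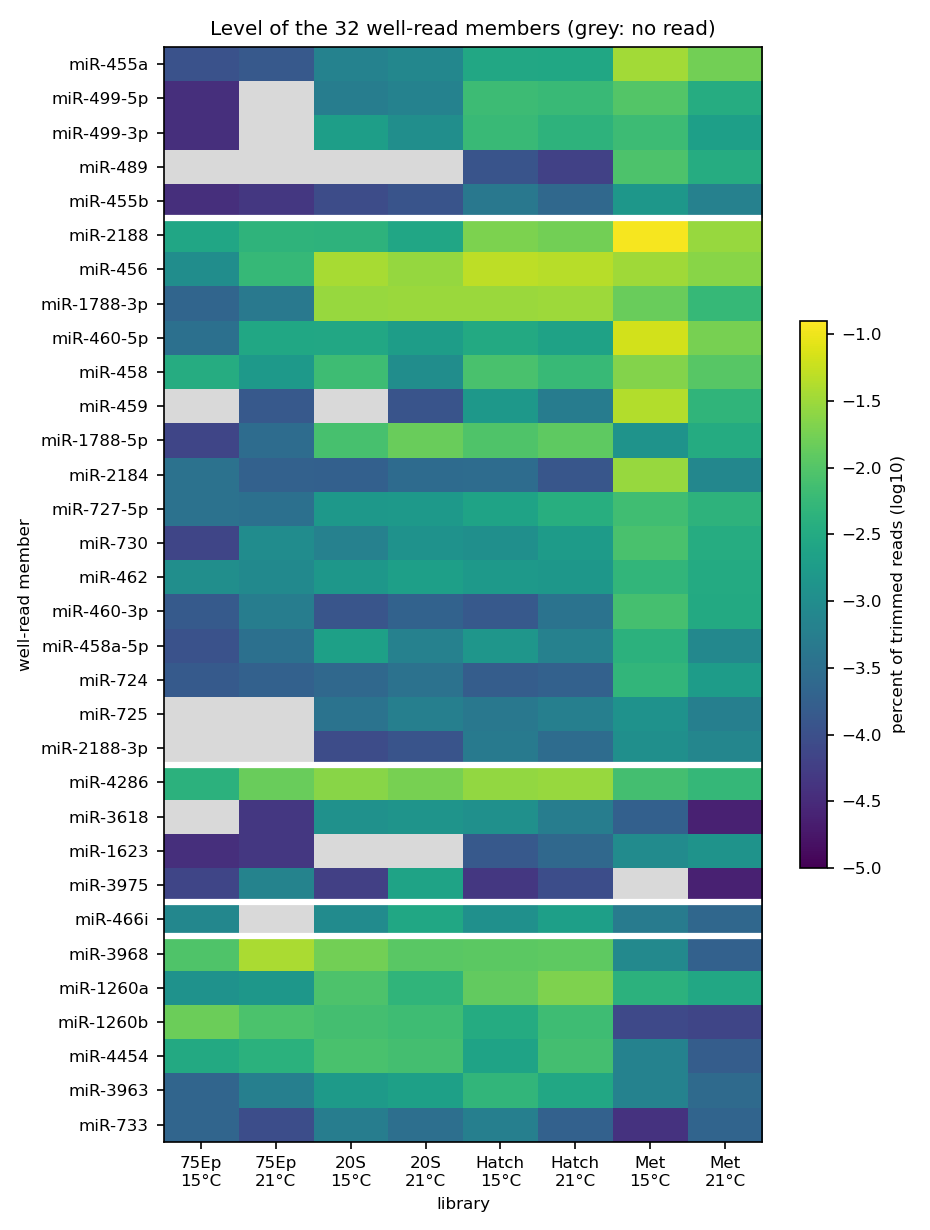
Level of the 32 well-read members (rows, grouped by list from vertebrate tissue miRNAs at the top to tRNA- or rRNA-like names at the bottom) in the 8 libraries (columns), as log10 of the percent of trimmed reads, with no read in grey. miR-455a at the top is darkest, hence lowest, at 75Ep, while miR-1260b near the bottom, with 422 and 191 reads at 75Ep against 4 and 3 at Met, is darkest at Met.

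Stages were compared with limma on the log2 percent of trimmed reads, with stage and temperature as terms and Benjamini-Hochberg adjustment over all miRNAs read in 2 or more libraries. Of the members, 60 could be tested. Across the 4 stages 35 of them passed at an adjusted p of 0.05, where 68.8% of all miRNAs tested did. Leaving out a library leaves its stage with a single library and lowers the residual degrees of freedom for every miRNA. Fewer members then passed, and the share of all miRNAs that then passed was not counted. miRNAs as a whole took more of the trimmed reads at the stages after 75Ep, and the whole set of miRNAs tested had a median change of 4.07 (log2) between 75Ep and Met. This median was 2.55 when scaled to the summed miRNA reads (rescaled) and 0.61 when each library was centred on the median of the miRNAs read in all 8 libraries (centred). Directions are given on the trimmed-read scale, and those that turn on another scale are named. In whole animals, fewer cells that make a miRNA and less of it per cell cannot be told apart.

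From 75Ep to Met, 29 members rose and 6 fell, against 63.4% higher and 5.42% lower of all miRNAs. Rescaled, 19 rose and 8 fell (all miRNAs 45.8% and 8.14%), and centred, 10 rose and 12 fell (23.7% and 16.6%). On each scale 9 of the risers had no read in either 75Ep library, so that their change depends on the value set for no read, which is the same in every library of a scale, and their passing on all 3 scales is no sign of stability. Of the members read at 75Ep, 20 rose, 10 rescaled and 1, miR-455a, centred. The same counts were not made for the other miRNAs read at 75Ep, so these are not set against a share. The median change of the 32 well-read members was 4.03, and 3.96 with the 3 members that had no read at 75Ep set to the bound that 3 reads allow. That of the 197 other well-read miRNAs was 5.07, and 4.88 with 17 at their bound. Well-read members need reads somewhere, so those that passed through a late stage alone had to be higher there. Without the Met 15°C library fewer members rose and fewer fell. Neither this nor the holding of calls without a library was counted over all miRNAs. Of the 35 calls, 17 held without each library in turn, and of those with reads at 75Ep miR-455a, which rose, and miR-1260b and miR-3968, which fell, held under every other setting too. The others of the 17 were miR-455b, miR-2188, miR-724, miR-727-5p, miR-1623 and both strands of miR-499 and miR-1788, and, with no read at 75Ep, miR-489, miR-725, miR-2188-3p, miR-2187-3p and miR-1957a, all of which rose. For these last 5 the bound on the rise as percent of miRNA reads was 22-fold for miR-489, 3.15-fold for miR-725 and 3.19-fold for miR-2188-3p, while for miR-2187-3p (0.623) and miR-1957a (0.696) it shows no rise.

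**Figure D3:**
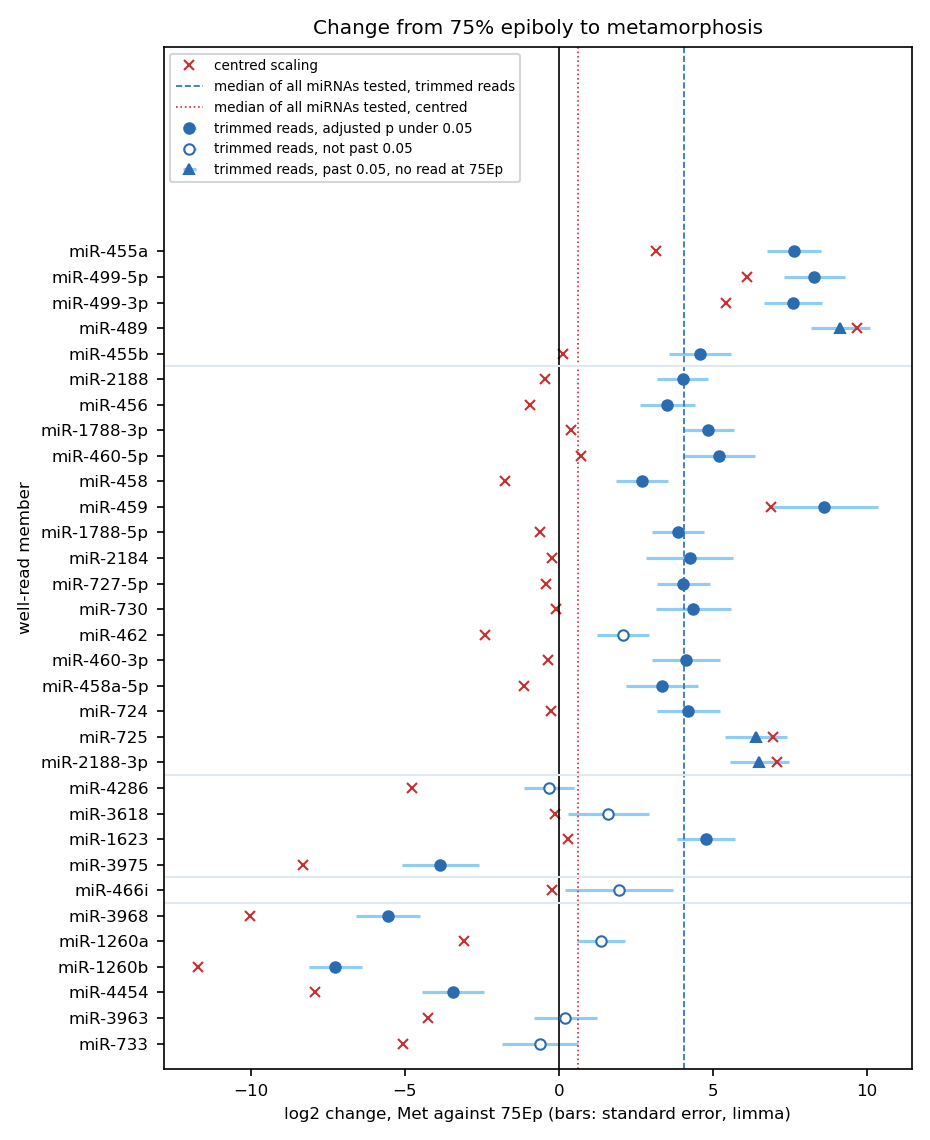
Change in log2 from 75Ep to Met for the 32 well-read members (points, percent of trimmed reads, with the limma standard error as bars), filled where the adjusted p was under 0.05, and as triangles for the 3 members with no read at 75Ep, whose fitted value on either scale depends on the value set for no read. Crosses give the same change on the centred scale, and vertical lines the median of all miRNAs tested (4.07 and 0.61). Most fish and bird members lie near the median on the trimmed-read scale and below it when centred, where their own median is -0.30. On both scales miR-489, miR-499-5p and miR-459 are among those above the median. miR-1260b, miR-3968 and miR-4454 are among those below 0.

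The 5 members known from vertebrate tissues, all well read, all rose from 75Ep to Met, on the rescaled values too (63.4% and 45.8% of all miRNAs). Their median change was 7.62, and 7.59 with miR-489 at its bound. Centred, 2 of the 5 passed, miR-455a and, with no read at 75Ep, miR-489. miR-489, which lies in an intron of the calcitonin receptor gene of mammals and keeps muscle satellite cells of the mouse quiescent, had no read in the 4 libraries of 75Ep and 20S, 5 and 2 at Hatch, then 452 and 148 at Met. Both Met libraries stood far above all others. It was at least 108-fold higher at Met than at 75Ep (adjusted p = 2.04e-04 by limma, both libraries higher), and 70.4-fold higher than at Hatch (log2 change 6.06 ± 0.95 SE, adjusted p = 0.00424). Its call between Hatch and Met was lost without either Hatch library or the Met 15°C library, and with no read left at its deposited value.

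miR-455a and miR-455b carry a miRNA of cartilage that lies in an intron of a fibrillar collagen gene. miR-455a had 3 and 3 reads at 75Ep, 22 and 20 at 20S, 124 and 91 at Hatch, then 1662 and 724 at Met, with no overlap between any of the stages. The change from 75Ep to Met was 7.62 ± 0.87 (SE, adjusted p = 2.20e-04), and each step but that from 20S to Hatch passed the test (20S against 75Ep 2.56, adjusted p = 0.0435; Met against Hatch 3.07, adjusted p = 0.0409). The change from 75Ep to 20S did not pass rescaled (0.80), centred (0.05) or with a pseudocount of 0.5 read. The calls of both steps were lost without either 20S or either Hatch library, and also without 75Ep 15°C for the first and Met 15°C for the last. miR-455b had 1 and 1, 3 and 3, 19 and 8, and 74 and 27 reads in the same order, and its change from 75Ep to Met was 4.58 ± 1.01 (adjusted p = 0.00364). miR-455a held 88% and 87% of the reads of both names at 20S and 95.7% and 96.4% at Met. How reads that fit both names were counted is not given in the sources used here, so their split is uncertain.

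miR-499, from an intron of a myosin heavy chain gene, is a miRNA of heart and slow muscle. miR-499-5p had 1 and 0 reads at 75Ep, 18 and 17 at 20S, 278 and 194 at Hatch, then 496 and 147 at Met. miR-499-3p had 1 and 0, 65 and 27, 257 and 145, and 324 and 87. Both strands were near absent at 75Ep and were present from 20S on, with Hatch and Met overlapping. From 75Ep to 20S miR-499-5p rose by 4.98 ± 0.99 (SE, adjusted p = 0.00879) and miR-499-3p by 6.24 ± 0.93 (adjusted p = 0.00573). From 75Ep to Met the changes were 8.28 ± 0.99 (adjusted p = 2.23e-04) and 7.59 ± 0.93 (adjusted p = 2.52e-04), with a single read of each at 75Ep behind them. The calls at 20S were lost without either 20S library, and that of miR-499-5p at 20S was lost rescaled. None of these 4 calls held when centred, or with no read left at its deposited value.

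The balance of the strands of miR-499 moved with stage. miR-499-5p held 21.7% (13.4% to 32.1%) and 38.6% (24.4% to 54.5%) of the reads of both strands at 20S. It held 52% and 57.2% at Hatch and 60.5% (57% to 63.9%) and 62.8% (56.3% to 69%) at Met. At 20S the 3p strand was thus the more read in both libraries and at Met the 5p strand, with intervals at 20S that do not reach those at Met.

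**Figure D4:**
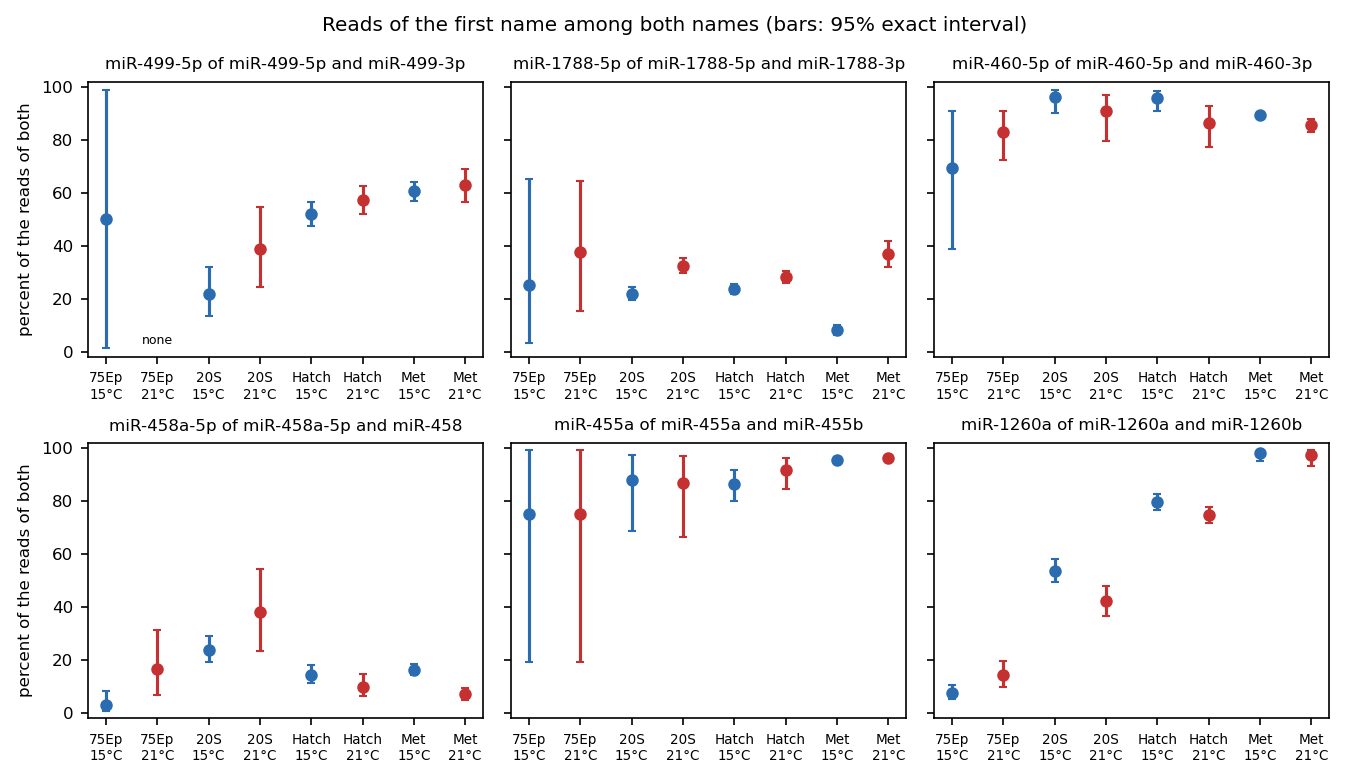
Percent of the reads of 2 names held by the first, with 95% exact intervals, in the 8 libraries (blue 15°C, red 21°C), for 4 pairs of strands and 2 pairs of near-identical names. The share of miR-1260a rises from 7.66% and 14.3% at 75Ep to 98.1% and 97.6% at Met, that of miR-499-5p from 21.7% and 38.6% at 20S to 60.5% and 62.8%, and that of miR-1788-5p is 8.01% at Met 15°C and 36.7% at Met 21°C.

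The 26 members described mainly from fish and birds held 16 of the 32 well-read members. Of the 25 tested, 20 rose from 75Ep to Met and none fell (63.4% higher and 5.42% lower of all miRNAs). The median change of the 16 that were well read was 4.16, and 4.03 with miR-725 and miR-2188-3p at their bounds, near the median of all miRNAs. Rescaled, 10 of the 25 rose and none fell (45.8% and 8.14%), with a median of 2.06. Centred, 2 fell, miR-462 and miR-731, and 5 rose (16.6% and 23.7%), with a median of -0.30. These 5 were miR-725, miR-2188-3p, miR-1388-5p, miR-737 and miR-2187-3p, none with a read at 75Ep, and no fish and bird member that was read at 75Ep rose centred. How many of all miRNAs read at 75Ep rose centred was not counted. Of the 16 well-read ones, 13 were highest at Met (81.2%, against 58.9% of the other well-read miRNAs), 2 at Hatch and 1 at 20S.

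miR-2188, first cloned from zebrafish, had the most reads of all members. It had 76 and 100 reads at 75Ep, 146 and 69 at 20S, 834 and 541 at Hatch, then 5446 and 1267 at Met. By percent of trimmed reads, 75Ep and 20S overlapped and each later library was higher, with a change from 75Ep to Met of 4.02 ± 0.83 (SE, adjusted p = 0.00274). Rescaled this change was 1.92 (adjusted p = 0.0281) and centred -0.45. As percent of miRNA reads miR-2188 went from 0.0397% and 0.0699% at 75Ep to 0.019% and 0.0121% at 20S and 0.0777% and 0.0544% at Hatch, and centred it fell from 75Ep to 20S by 2.56 (adjusted p = 0.0146). Its other strand, miR-2188-3p, had no read at 75Ep, 3 and 3 at 20S, 20 and 9 at Hatch, then 55 and 32 at Met, at least 15.6-fold higher at Met than at 75Ep (adjusted p = 5.54e-04). The unmarked strand held 95.8% to 100% of the reads of both in every library.

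miR-456 and miR-1788, known from birds and fish, were members of the middle stages. miR-456 had 29 and 122 reads at 75Ep, 1213 and 737 at 20S, 2158 and 1513 at Hatch, then 1617 and 999 at Met. By level the 75Ep libraries stood lowest and the Hatch libraries highest, with 20S and Met overlapping between them, and the change from 75Ep to 20S was 3.75 ± 0.90 (SE, adjusted p = 0.0146). miR-1788-3p had 6 and 10, 966 and 774, 1308 and 1014, and 724 and 240 reads in the same order. It was 91.9-fold higher at 20S than at 75Ep (log2 change 6.56 ± 0.83, adjusted p = 0.00514) and was lower at Met than at Hatch in both libraries, a difference that did not pass the test on this scale. miR-1788-5p had 2 and 6, 269 and 371, 403 and 398, and 63 and 139, and was 67.6-fold higher at 20S than at 75Ep (6.27 ± 0.84, adjusted p = 0.00528). The calls of both strands at 20S held rescaled and centred, that of miR-456 did not, and all 3 were lost without either 20S library. That of miR-456 was also lost without the 75Ep 15°C library or either Hatch library. Centred, both strands of miR-1788 fell from Hatch to Met, miR-1788-3p by 2.41 (adjusted p = 0.0118) and miR-1788-5p by 3.05 (adjusted p = 0.0329).

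Several fish and bird members were low until Hatch and high at Met alone. miR-460-5p had 9 and 59 reads at 75Ep, 96 and 49 at 20S, 133 and 76 at Hatch, then 3231 and 758 at Met. miR-460-3p had 4 and 12, 4 and 5, 6 and 12, and 388 and 129. miR-724, of zebrafish, had 4 and 4, 8 and 9, 7 and 6, and 244 and 77. In all 3 the Met libraries stood apart from the 6 others. From Hatch to Met miR-460-3p rose by 4.43 ± 1.11 (SE, adjusted p = 0.0278) and miR-724 by 4.11 ± 1.02 (adjusted p = 0.0278), on the rescaled and centred values too, though neither call held without each Hatch, each 20S or the Met 15°C library. With no read left at its deposited value the call of miR-460-3p was lost as well. miR-460-5p was 15.7-fold higher at Met than at Hatch over both libraries, which did not pass the test. Its change from 75Ep to Met did (5.19 ± 1.17, adjusted p = 0.00389), though not without the Met 15°C library, as was the case for the change of miR-456 over the same stages (3.52 ± 0.90, adjusted p = 0.00743). Neither passed rescaled (miR-460-5p 3.09, adjusted p = 0.0657, and miR-456 1.43, adjusted p = 0.195) or centred (0.73 and -0.94).

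miR-459 and miR-2184 were high at Met mostly in the 15°C library. miR-459 had 0 and 3 reads at 75Ep, 0 and 3 at 20S, 67 and 17 at Hatch, then 2125 and 206 at Met. miR-2184, of zebrafish, had 10 and 4, 6 and 7, 12 and 4, and 1467 and 34. By percent of trimmed reads both Met libraries were above all others for both miRNAs, while by percent of miRNA reads miR-2184 was lower at Met 21°C (0.00448%) than at 75Ep 15°C (0.00522%). The changes from 75Ep to Met were 8.59 ± 1.76 (SE, adjusted p = 0.00259) and 4.24 ± 1.40 (adjusted p = 0.0242), and neither was called without the Met 15°C library. Both calls were also lost with no read left at its deposited value. The call of miR-2184 was lost too without either 75Ep or either Hatch library, and without Met 15°C its change was 1.9. It did not pass rescaled (2.15, adjusted p = 0.186) or centred (-0.22), and miR-459 passed rescaled (7.87, adjusted p = 0.049) but not centred (6.87, adjusted p = 0.138).

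miR-458 had 98 and 35 reads at 75Ep, 224 and 26 at 20S, 359 and 190 at Hatch, then 1079 and 465 at Met, with a change from 75Ep of 2.70 ± 0.84 (SE, adjusted p = 0.0184) that was lost without the 75Ep 15°C library or either Met library. Its other strand, miR-458a-5p, had 3 and 7, 70 and 16, 61 and 21, and 212 and 35. miR-727-5p had 10 and 7, 51 and 43, 104 and 121, and 340 and 192 reads, and rose from 75Ep to Met by 4.04 ± 0.85 (adjusted p = 0.0029). The stages of miR-727-5p did not overlap, while those of miR-458 and miR-458a-5p did. miR-730 had 2 and 21, 21 and 31, 47 and 57, and 415 and 148. Its sequence as listed in the paper is near-identical to that of miR-460b, and how reads that fit both were counted is not given. miR-725 had no read at 75Ep, 12 and 15 at 20S, 19 and 19 at Hatch, then 61 and 25 at Met. It was at least 7.6-fold higher at 20S (adjusted p = 0.00664) and at least 15.5-fold higher at Met (adjusted p = 7.59e-04) than at 75Ep, the first of these calls being lost without either 20S library. The calls of miR-458a-5p (adjusted p = 0.0297) and miR-730 (adjusted p = 0.0115) at Met were lost without the 75Ep 15°C or Met 15°C library, and that of miR-458a-5p without any 1 of the other libraries but 75Ep 21°C. None of miR-458, miR-458a-5p and miR-730 passed rescaled (0.60, 1.24 and 2.27) or centred (-1.76, -1.13 and -0.10).

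miR-462 and miR-731 form a teleost cluster that interferon induces. miR-462 had 30 and 19 reads at 75Ep, 50 and 53 at 20S, 69 and 48 at Hatch, then 252 and 138 at Met. Both Met libraries were highest, yet the change of 2.07 ± 0.84 (SE, adjusted p = 0.0531) did not pass the test. It was -0.03 rescaled and -2.40 centred (adjusted p = 0.0332). miR-731 stayed a trace, with at most 7 reads in any library (3 and 1, 2 and 6, 7 and 7, 7 and 0).

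Names grouped here as resembling pieces of tRNA, rRNA or mitochondrial RNA went the other way. The grouping comes from general knowledge of the names and was not checked by alignment. Names left outside it, the much-read miR-4286 among them, were not checked either, and the medians below depend on which names are included. Of 15 members 6 were well read, and none of the 6 was highest at Met. Of the 14 tested, 4 fell and 2 rose from 75Ep to Met (5.42% lower and 63.4% higher of all miRNAs), and rescaled 5 fell and 2 rose (8.14% and 45.8%). Both risers, miR-1957a and miR-4448, had no read at 75Ep. The median change of the 6 well-read ones was -2.02, on a scale on which the median of all miRNAs was 4.07. It was -4.12 rescaled and -6.49 centred, where 7 fell and 2 rose (16.6% and 23.7%).

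miR-1260b had 422 and 191 reads at 75Ep, 253 and 170 at 20S, 144 and 222 at Hatch, then 4 and 3 at Met. It was 162-fold lower at Met than at 75Ep (log2 change -7.25 ± 0.85 SE, adjusted p = 2.20e-04) and 63.6-fold lower than at Hatch (-5.98 ± 0.85, adjusted p = 0.00354), the last call being lost without either Hatch or the Met 15°C library. Its near-identical name miR-1260a had 35 and 32, 294 and 124, 567 and 663, and 211 and 123 reads. It rose from 75Ep to 20S by 2.27 ± 0.79 (adjusted p = 0.0486), a call that was lost rescaled and centred (-0.25) and without either 75Ep, either 20S or either Hatch library. Its change from 75Ep to Met was 1.37 on the trimmed-read scale, -0.72 rescaled and -3.09 centred.

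The share of miR-1260a in the reads of both names was 7.66% (5.39% to 10.5%) and 14.3% (10% to 19.6%) at 75Ep. It was 53.7% and 42.2% at 20S, 79.7% and 74.9% at Hatch, and 98.1% (95.3% to 99.5%) and 97.6% (93.2% to 99.5%) at Met. No stage overlapped with another and the counting intervals of neighbouring stages did not meet. A ratio of 2 names within a library does not depend on the scaling, but it does depend on how shared reads were counted, which is not given.

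miR-3968 had 262 and 828 reads at 75Ep, 564 and 291 at 20S, 495 and 395 at Hatch, then 43 and 8 at Met. miR-4454 had 88 and 89, 279 and 192, 104 and 241, and 33 and 7. In both, the Met libraries lay below the 6 others. miR-3968 fell from 75Ep to Met by 5.55 ± 1.03 on the log2 scale (SE, adjusted p = 0.00168) and miR-4454 by 3.44 ± 1.01 (adjusted p = 0.0142). From Hatch to Met the changes were -4.87 (adjusted p = 0.0191) and -3.67 (adjusted p = 0.0372), on the rescaled and centred values too. The call of miR-4454 against 75Ep was lost without the 75Ep 21°C or Met 21°C library, and those against Hatch without any 1 of the 6 libraries of 20S, Hatch and Met. Both calls against Hatch were also lost with no read left at its deposited value. miR-3963 had 6 and 13, 56 and 54, 213 and 92, and 33 and 11 reads, and miR-733 6 and 2, 18 and 8, 25 and 6, and 2 and 9. Neither passed between 75Ep and Met (0.21, adjusted p = 0.871, and -0.60, adjusted p = 0.677), and centred miR-3963 fell by 4.25.

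The well-read members left over were miR-4286, miR-3618, miR-1623, miR-3975 and miR-466i. miR-4286 had 121 and 311 reads at 75Ep, 789 and 464 at 20S, 1177 and 950 at Hatch, then 371 and 229 at Met. It was among the 3 most read members of each library before Met, and its change from 75Ep to Met was -0.31 ± 0.81 (SE, adjusted p = 0.748). Rescaled it fell by 2.40 (adjusted p = 0.029) and centred by 4.77 (adjusted p = 0.00267).

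miR-3618, which lies in the DGCR8 gene of human, had 0 and 1 reads at 75Ep, 39 and 34 at 20S, 50 and 18 at Hatch, then 9 and 1 at Met. It rose from 75Ep to 20S by 5.86 ± 1.32 (SE, adjusted p = 0.0122), with a single read at 75Ep, and was lower in both Met libraries than at 20S and Hatch. That call did not hold rescaled, centred or without the 75Ep 15°C library, either 20S or either Hatch library. miR-1623, a chicken name, had 1 and 1, 0 and 0, 6 and 8, and 48 and 54 reads, and rose from 75Ep to Met by 4.77 ± 0.93 (adjusted p = 0.00203). At Met it was 1.32-fold (0.875 to 1.98) higher at 21°C by percent of trimmed reads and 3.39-fold (2.25 to 5.11) by percent of miRNA reads. The call of miR-1623 was lost centred (0.31, adjusted p = 0.841 by limma) and with no read left at its deposited value. Its sequence as listed in the paper overlaps most of that of miR-214-3p. How reads that fit both names were counted is not given. miR-3975 had 2 and 15, 2 and 61, 2 and 3, and 0 and 1 reads, so that 76 of its 86 reads came from the 21°C libraries of 75Ep and 20S. Its fall from 75Ep to Met (-3.85 ± 1.25, adjusted p = 0.023) rested on 1 read at Met and was lost without any 1 of the 75Ep or Met libraries. miR-466i, whose mouse namesakes form a repeat-rich cluster in an intron of Sfmbt2, had 22 and 0, 32 and 71, 50 and 66, and 25 and 10.

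From 75Ep to 20S, 12 members rose and 1 fell, where 39.3% of all miRNAs were higher and 1.02% lower. Rescaled, 7 rose and 2 fell (14.9% and 3.05%), and centred, 7 rose and 6 fell (14.6% and 6.44%). The risers were both strands of miR-499 and miR-1788, miR-456, miR-455a, miR-725, miR-2188-3p, miR-3618, miR-1260a, miR-1957a and miR-4448. Of the risers 4 had no read at 75Ep, as had 4 of the 7 rescaled and 5 of the 7 centred. All calls of members on the trimmed-read scale were lost without either 20S library, and some without 75Ep 15°C or either Hatch library. The losses over all miRNAs were not counted. From 20S to Hatch limma called no member (8 at an unadjusted p under 0.05, 0 by voom on the recovered reads), where 1.36% of all miRNAs were called. From Hatch to Met, 5 members rose and 3 fell, against 13.6% and 4.07% of all miRNAs. Rescaled, 6 rose and 6 fell (14.6% and 5.76%), and centred, 5 rose and 9 fell (13.2% and 12.2%). Without Hatch 15°C, Hatch 21°C or Met 15°C all these calls on the trimmed-read scale were lost, and most were lost without either 20S library. Losses over all miRNAs were again not counted.

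Trace members numbered 43, of which 35 stayed under 10 reads in every library and 20 had at most 3 reads in all. A single read stood behind 11. Those with 10 or more reads in exactly 1 library, just outside the threshold, numbered 8. They were miR-727-3p with 78 reads at Met 15°C, miR-1388-5p with 34, miR-728 with 15 and miR-2187-3p with 13 in the same library, miR-737 with 12 at Hatch 15°C, miR-4304 with 15 at 75Ep 21°C, miR-1957a with 11 at Met 21°C, and miR-2137 with 10 at 20S 21°C. Just inside it, with 2 such libraries, were miR-489, miR-724, miR-733, miR-1623 and miR-3975.

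Of the trace members, 8 were read at 75Ep or 20S only and 15 at Hatch or Met only. The same counts were not made for the other miRNAs. Trimmed reads numbered 2169069 to 3320266 per library at 75Ep and 20S and 3256433 to 4965849 at Hatch and Met. No comparison between stages is therefore drawn from these counts. With no read before Hatch, miR-1388-5p had 2 and 2 there, then 34 and 2 at Met, and miR-2187-3p had 1 and 1, then 13 and 4. By percent of trimmed reads they were at least 6.48-fold and at least 3.06-fold higher at Met than at 75Ep (adjusted p = 0.0115 and 0.00321). The call of miR-1388-5p was lost without the 75Ep 15°C library. miR-4304 had 15 of its 16 reads at 75Ep 21°C. The 3 members listed here as sharing a seed with an older family were read 8 times in all and only at Hatch and Met. The seeds of the other members were not compared with older families. miR-4500, which has the let-7 seed, had 3 reads at Met 15°C, and miR-4295, with that of miR-130, 1 and 1 at Hatch. miR-4319, put in this list for the seed of miR-125, had 1 at Hatch 21°C and 2 at Met 15°C. Its sequence as listed in the paper departs from that seed.

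The other trace members are given by their reads. In the fish and bird list miR-722, which acts in zebrafish neutrophils, had 3 reads at Hatch 15°C and 1 at Met 21°C, miR-2187-5p 4, miR-460b 1 and miR-1388-3p 11. miR-727-3p, miR-737 and miR-728 had 103, 32 and 21 reads in all. Among the tRNA- or rRNA-like names, totals ran from 1 read (miR-4532) to 45 (miR-2137). miR-1957a and miR-4448 had no read at 75Ep and rose (adjusted p = 0.00324 and 0.022 for Met, at least 3.42-fold and at least 2.16-fold by percent of trimmed reads, and no rise shown by percent of miRNA reads, where the bounds were 0.696 and 0.44), while miR-1973 had 2 and 5 reads at 75Ep and none at Met (adjusted p = 0.0109, at least 4.32-fold lower). The calls of miR-4448 and miR-1973 at Met did not hold without every library: the first was lost without either 75Ep or the Met 15°C library, the other without 75Ep 21°C or either Met library. miR-4792, miR-1692, miR-5100 and miR-5112 had 29, 27, 19 and 19 reads, and all 4 were under 10 in each library. miR-574, miR-466q, miR-467f and miR-467g had 3, 4, 1 and 1. The remaining mammalian or bird names had at most 20 reads, which miR-1243 had (5 and 2 at 75Ep, 1 and 0 at Met, adjusted p = 0.0272, lost without 75Ep 15°C or either Met library). miR-5119 had 15, miR-4256 6 and miR-4255 4, the last with 2 and 2 at Met alone (adjusted p = 0.0264, lost without either 75Ep library). The call of miR-4255 was also lost with a pseudocount of 0.5 read and by voom, and it entered the test through its Met reads alone. Its bounds at Met against 75Ep, 0.72 by percent of trimmed reads and 0.147 by percent of miRNA reads, show no rise. miR-1599, miR-4273, miR-4502, miR-4576 and miR-5108 had 2 each, and miR-509, miR-1582, miR-1701, miR-4289, miR-4327, miR-4560 and miR-5124a 1 each.

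No difference between incubation temperatures was called over the 4 stages. With stage as a block limma called 0 of the 60 members (1 at an unadjusted p under 0.05, 0 by voom, smallest adjusted p = 0.998) and 0% of all miRNAs. Within a stage there is 1 library per temperature and no test. Differences of 2-fold or more, among members with 10 or more reads in 1 of both libraries, were found for 12 of 19 at 75Ep (63.8% of all miRNAs), 4 of 25 at 20S (16.8%), 9 of 29 at Hatch (22%) and 23 of 33 at Met (71.8%). Rescaled, the Met count was 9 of 33 (22.6%). Differences of 4-fold or more numbered 7, 2, 1 and 8 (35.6%, 3.78%, 6.54% and 23.1% of all miRNAs). As shares, 63.2%, 16%, 31% and 69.7% of the members differed by 2-fold in the order of the stages.

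**Figure D5:**
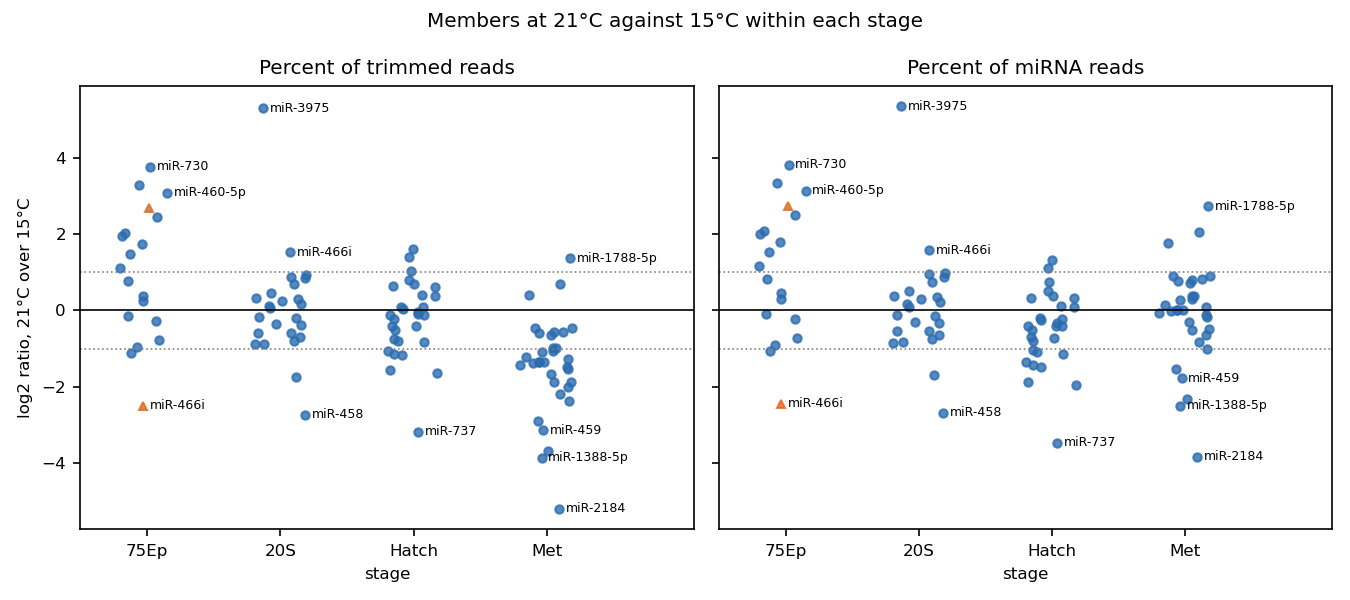
Ratio of 21°C to 15°C within each stage (log2, each point 1 member with 10 or more reads in 1 of both libraries), as percent of trimmed reads on the left and of miRNA reads on the right, with 2-fold marked by dotted lines and ratios against 0 reads, set at the floor of 3 reads, as triangles. Most points lie above 0 at 75Ep on both scales, and at Met most lie below 0 on the left and on either side of 0 on the right, where miR-2184 (1467 and 34 reads) stays lowest and miR-1788-5p (63 and 139) highest.

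At 75Ep, where the median of all miRNAs was 1.17 higher at 21°C on the log2 scale, miR-730 was 13.6-fold (3.32 to 119) and miR-460-5p 8.47-fold (4.17 to 19.4) higher at 21°C. miR-456 was 5.44-fold and miR-3968 4.08-fold higher. miR-458 was 2.17-fold higher at 15°C. At 20S, where the median was 0.02, miR-3975 was 39.5-fold higher at 21°C (2 and 61 reads, 10.5 to 333), and miR-458 and miR-458a-5p were 6.65-fold and 3.38-fold higher at 15°C. At Hatch miR-4454 was 3.07-fold higher at 21°C, miR-737 (12 and 1 reads) 9.06-fold and miR-459 2.98-fold higher at 15°C.

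At Met the median of all miRNAs was lower at 21°C by 1.39 on the trimmed-read scale and by 0.03 rescaled, so ratios are given on both. miR-2184 was 36.9-fold higher at 15°C, and 14.3-fold rescaled. miR-459 was 8.82-fold and 3.43-fold higher at 15°C, miR-1388-5p 14.5-fold and 5.64-fold. miR-1788-5p went the other way, 2.58-fold and 6.64-fold higher at 21°C, while its other strand was 2.58-fold lower at 21°C and level when rescaled (0.998-fold). The 5p strand accordingly held 8.01% (6.21% to 10.1%) of the reads of both strands at Met 15°C and 36.7% (31.8% to 41.7%) at Met 21°C, a within-library ratio that no scaling changes. At 20S the shares were 21.8% and 32.4%, and at Hatch 23.6% and 28.2%, each higher at 21°C.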

How the data were processed

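Small RNA from 8 pooled libraries had been sequenced by the authors on SOLiD, trimmed, filtered of other small RNAs by BLAST and mapped to miRBase. The deposited log2 values were made by the authors by dividing reads by the trimmed reads of the library, as a percent. Trimmed reads were recovered from the step between low values, and 99.5% of the 2033 values above the lowest (-46.51, no read) then stood for whole reads within 0.01 read. Values under 1 read, 1 of them in a member (0.209 read), counted as no read and entered tests at -16.60, a log2 unit under the lowest level that 1 read gave in any library.

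Members are all names numbered as miR-455 or higher. The members and the lists were chosen with earlier results of these data known, and the lists from general knowledge of the names. limma 3.58.1 (R 4.3.3) was fitted to the 295 miRNAs read in 2 or more libraries, with terms for stage and for temperature and a variance trend, two-sided, and Benjamini-Hochberg adjustment at 0.05. It was also run on simulated data with changes at Met only, read out between Hatch and Met, which does not bear on the other comparisons. Fold bounds use 3 reads over both libraries of a stage. Members are named where well read, called, near the well-read threshold, or read in 1 stage only, and all others are given by their reads. Python 3.11.15 gave intervals and figures (scipy 1.17.1, matplotlib 3.10.9, pandas 2.3.3, numpy 2.4.6). Alternatives were 2 other scalings, 2 other settings of no read, 2 filters, no trend, voom, 1 factor only, leaving out the miRNAs that held such non-whole values, and leaving out each library. qPCR values were not used here.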

Additional observations from a re-analysis of the deposited data

Results flagged for a closer look

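The temperature ratio of miR-466i went in opposite directions at 2 stages. At 20S it had 32 reads at 15°C and 71 at 21°C, 2.87-fold higher at 21°C by percent of trimmed reads. At 75Ep all its 22 reads were in the 15°C library, a ratio of at most 0.176 with the floor of 3 reads. With 1 library per stage and temperature, this difference between stages was not tested. Such a turn was not particular to miR-466i. By percent of trimmed reads miR-460-5p went from 8.47-fold at 75Ep to 0.274-fold at Met, and miR-730 from 13.6-fold to 0.417-fold. Between these stages the median of all miRNAs went from 1.17 to -1.39 (log2).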

How the results depend on the processing

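Each stage has 1 library per temperature, so leaving out a library leaves a stage with 1, which is assumed to vary like the others, and 2 residual degrees of freedom. That holds for every miRNA, and calls over all miRNAs were not counted without a library. Without each library in turn the members called ranged from 20 to 29 over all stages, 20 to 33 for Met against 75Ep, 0 to 14 for 20S against 75Ep, 0 to 0 for Hatch against 20S, 0 to 12 for Met against Hatch and 0 to 0 for temperature. The change from 75Ep to Met took both signs for miR-4286 (-1.3 to 0.68), miR-3618 (-0.14 to 3.34), miR-466i (-1.39 to 5.3), miR-3963 (-0.84 to 1.26) and miR-733 (-2.41 to 1.2). The libraries of both temperatures were paired by stage, through the stage term, and without that term 0 members were called for temperature as well. The labels give no replicate numbers, so no replicate block was fitted.

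Centred, 22 members were called for Met against 75Ep, 1 for Hatch against 20S and 14 for Met against Hatch. With no read as deposited, 6 were called for Hatch against 20S and 5 for Met against Hatch. Calls lost in that setting, beside those named above, were miR-458a-5p, miR-727-3p, miR-1388-3p, miR-3975 and miR-1243 from 75Ep to Met. From 75Ep to 20S they were miR-3618 and miR-1973, and from Hatch to Met miR-1388-3p. Without the variance trend 1 was called for Hatch against 20S, and with 1 factor only 1 for Hatch against 20S and 13 for Met against Hatch. For the counts with no read as deposited, without the trend and with 1 factor only, no share over all miRNAs is given. The same holds for the centred count of Hatch against 20S. All other settings, the rescaled one included, stayed within 1.5 times the main counts. From 3 reads on, 25 members were detected at 75Ep 15°C, and thinned to the fewest miRNA reads 35.0 at Met 15°C. As percent of miRNA reads the members took 0.676, 1.34, 0.73, 0.665, 0.857, 0.727, 0.95 and 0.86 in the order 75Ep, 20S, Hatch, Met (15°C before 21°C). Members 4-fold apart between temperatures numbered 7 at 75Ep, 2 at 20S, 1 at Hatch and 8 at Met, and 9 at Met were 2-fold apart when rescaled.

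Centred, the change from 75Ep to Met turned for miR-2188 (-0.45), miR-456 (-0.94), miR-458 (-1.76), miR-1788-5p (-0.60), miR-2184 (-0.22), miR-727-5p (-0.43), miR-730 (-0.10), miR-462 (-2.40), miR-460-3p (-0.35), miR-458a-5p (-1.13), miR-724 (-0.26), miR-727-3p (-1.13), miR-3618 (-0.12), miR-466i (-0.23), miR-1260a (-3.09) and miR-3963 (-4.25), and for miR-1260a from 75Ep to 20S (-0.25). Rescaled, it turned for miR-462 (-0.03), miR-1260a (-0.72) and miR-3963 (-1.88). The cause was not tested.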
